A study of Homo sapiens with 14 samples.

Results

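HL-60 cells that had been kept for 6 days with DMSO were compared with undifferentiated HL-60 cells by RNA-seq. HL-60 is a suspension line from a human acute myeloid leukemia, and DMSO (dimethyl sulfoxide) drives it toward a neutrophil-like state. The comparison used 4 of the 14 libraries of the series, chosen by their labels alone: 2 of undifferentiated cells, grown in medium with 9% fetal bovine serum and no DMSO, and 2 of cells given 1.3% DMSO in medium with the same 9% serum. No transgene was named for the HL-60 cultures. Replicates 1 and 2 came from experiments on separate days, so an undifferentiated and a DMSO library with the same number form a pair. The other libraries of the series held HL-60 cells given 1.3% DMSO with Nutridoma, a serum substitute, at 2% in 0.5% serum, and PLB-985, a subclone of HL-60 whose cultures here carried an H2B-mCherry reporter, in the same states and at days 2 and 4 of the Nutridoma treatment. The question was which genes distinguish DMSO-treated HL-60 cells from the cells they were made from.

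As background, a neutrophil precursor passes from a dividing promyelocyte, which makes the proteases and myeloperoxidase of the azurophil granules, to a cell that no longer divides and that fills its specific and gelatinase granules. The mature cell follows formylated peptides, complement fragments and lipids through G protein-coupled receptors, adheres through the beta-2 integrins and kills with the NADPH oxidase, which assembles membrane and cytosolic subunits. Cell cycle genes are silenced along this path by RB family proteins and the DREAM complex, which act at E2F sites and at CHR elements of promoters. Bulk RNA cannot tell a lower share of cells of one kind from less RNA per cell, and this holds for each result here.

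The undifferentiated libraries carried the defining genes of the line. MPO, myeloperoxidase, stood at 4260 and 3460 normalized FPKM in undifferentiated replicates 1 and 2. FPKM is a count of fragments scaled by transcript length and by mapped fragments, and normalized means multiplied by the factor of its library. CDKN2A was measured at 9.91 and 6.73 in undifferentiated and 6.92 and 6.73 in DMSO libraries.

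The 4 libraries listed between 20506 and 23265 of 60707 gene rows above 0. Absolute read depth cannot be read from FPKM values. Relative depth, estimated from the steps between low values, was 1.0 for undifferentiated replicate 2 and 0.84 and 0.756 for the DMSO replicates against undifferentiated replicate 1. The estimate rests on the most frequent ratio, held by 524 of 4156 rows for the undifferentiated pair, whose libraries listed 23265 and 20506 rows above 0. Mitochondrial genes held 5.3 and 7.02% of the FPKM in undifferentiated and 7.19 and 14.2% in DMSO replicates 1 and 2. A row named AC006483.1 was the most abundant in replicate 1 of both groups and was listed at 0 in replicate 2 of both. The factor shifts all genes together. Over all genes tested, the median log2 fold change was -0.112 with the deposited factor and 0.017 on FPKM without it, so a small change in either direction depends on the scale.

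The test covered 13778 rows, those that reached 1 normalized FPKM in 2 or more of 12 libraries with replicates. Of these, 8366 changed between DMSO and undifferentiated HL-60 cells at an adjusted p under 0.05, which is 60.7% of the rows tested. The test was limma on log2(normalized FPKM + 1) with replicate number as a term and Benjamini-Hochberg adjustment over all rows. DMSO cells had higher levels of 3584 genes (26.0%) and lower levels of 4782 (34.7%). Fold changes on this scale understate the changes of genes near 1 normalized FPKM. At least a doubling, a log2 fold change of 1, was reached by 1810 of the higher and 2567 of the lower genes, and a log2 fold change of 3 by 142 and 174.

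The change had the same sign in pair 1 and pair 2 for 85.4% of all rows tested. The 2 DMSO values did not overlap the 2 undifferentiated values for 7869 of the 8366 called genes. The same held for 9928 of all 13778 rows tested, 2059 of which did not pass. Of 3539 rows that changed at least 2-fold in both pairs, 13 had opposite signs. Genes called higher held 10.2 and 10.5% of the normalized FPKM in undifferentiated and 32.1 and 36.1% in DMSO replicates 1 and 2. Genes called lower fell from 67.2 and 69.4% to 38.2 and 36.6%, so the 2 classes held similar shares with DMSO. The classes were called on these same libraries, so the direction of both shifts follows from the calls and only their size is informative.

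**Figure D1:**
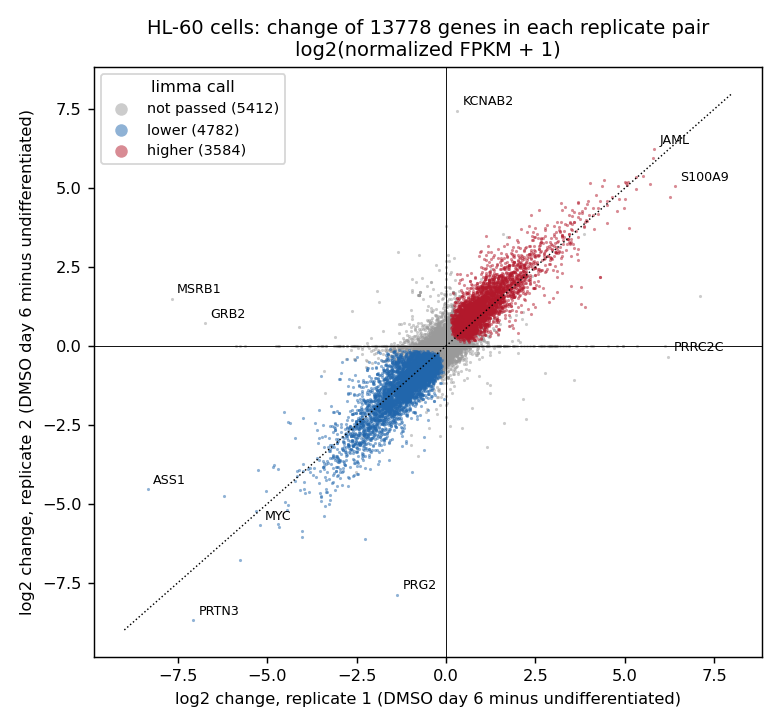
Each point is 1 of 13778 genes, placed by its log2 change from undifferentiated to DMSO day 6 in replicate 1 (horizontal axis) and replicate 2 (vertical axis), on log2(normalized FPKM + 1), and colored by limma call, and the dotted line marks equal change. The 3584 genes called higher and the 4782 called lower lie in opposite corners, while GRB2, MSRB1, KCNAB2 and PRRC2C, each listed at 0 in 1 library, and PRG2 lie far from the line.

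The largest increase was that of JAML, an adhesion molecule of the junctional adhesion molecule family on chr11:118193725-118225092 (GRCh38, minus strand). Its level was 3.72 and 3.01 normalized FPKM in undifferentiated and 265 and 302 in DMSO libraries, a log2 fold change of 6.03 (SE 0.29, limma adjusted p = 6.2e-06). PADI4, the enzyme that citrullinates histones in neutrophil extracellular traps, went from 5.03 and 4.41 to 332 and 338, a log2 fold change of 5.88 (SE 0.61, limma adjusted p = 1e-04). In both genes the DMSO values lay close to each other and far above either undifferentiated value.

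S100A9, a subunit of calprotectin on chr1:153357854-153361023, reached 10559 and 11514 normalized FPKM from 124 and 345, and gained more FPKM than any other named gene. The next largest gains in FPKM were those of B2M, the light chain of MHC class I, from 3823 and 4393 to 11506 and 11712, and of TPT1, from 4203 and 3552 to 8367 and 8264. The remaining genes among the 15 largest increases were receptors and surface proteins in the main: S100A8, ITGAM, FPR1, LILRB2, CR1, VNN2, ITGAX, STEAP4, LILRA5, LRRC25, ABTB1 and HPGD. Their log2 fold changes ran from 4.84 for HPGD to 5.49 for S100A8. LILRB2 and LILRA5, an inhibitory and an activating receptor of the same leukocyte receptor family, rose from 1.11 and 0.973 to 82.8 and 79.6 and from 0.325 and 0.339 to 43.2 and 45.2. Sequence shared within this family could move reads between its members.

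PRTN3, the azurophil protease proteinase 3, on chr19:840999-848175, had the largest decrease. It was at 256 and 645 normalized FPKM in undifferentiated and at 0.908 and 0.554 in DMSO libraries, a log2 fold change of -7.88 (SE 0.98, limma adjusted p = 0.00025). ASS1, which makes argininosuccinate in arginine synthesis, differed widely between the undifferentiated libraries, at 509 and 29.5, and was at 0.574 and 0.308 with DMSO. MYC, the transcription factor that HL-60 cells are known to carry in amplified copies, fell from 404 and 426 to 9.91 and 7.31, a log2 fold change of -5.45 (SE 0.26, limma adjusted p = 5.9e-06).

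Of the 15 largest decreases, 4 were of amino acid genes, ASS1 included. SLC38A5, a transporter of glutamine and related amino acids, was at 99.8 and 132 in undifferentiated and at 0.842 and 0.213 in DMSO libraries. PYCR1, the last enzyme of proline synthesis, was at 34.8 and 26.2 and then at 0.0912 and 0.133. PSAT1, of serine synthesis, is given with its pathway. The rest were PPP1R18, MPO, GAL, PPP1R27, ELANE, MATK, PLPPR3, MZB1 and PRG2. PPP1R18 was listed at 0 in both DMSO libraries, against 38.9 and 36.7 in the undifferentiated ones, and its call did not pass without undifferentiated replicate 1 (limma adjusted p = 0.1) or without DMSO replicate 2 (adjusted p = 0.1). It was also listed at 0 in the Nutridoma libraries and in PLB-985 cells after DMSO. Such a 0 may be a failed estimate, so no fold is given.

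**Figure D2:**
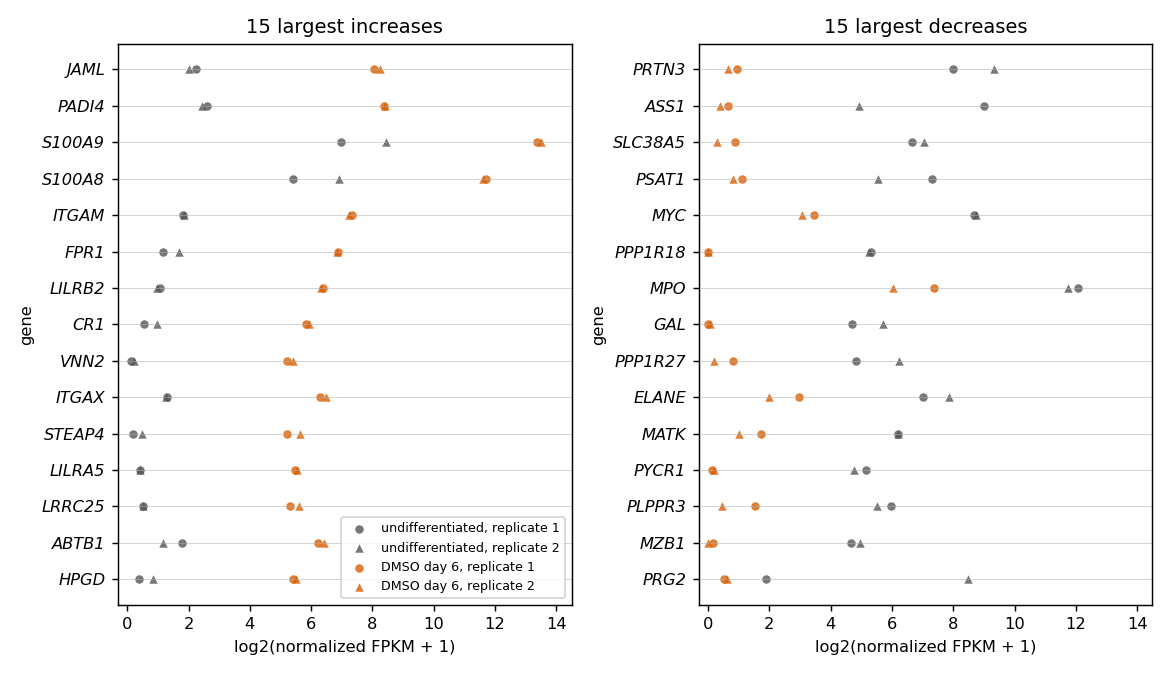
log2(normalized FPKM + 1) of the 15 genes with the largest increases (left) and decreases (right) in each of the 4 libraries, with gray for undifferentiated, orange for DMSO day 6, circles for replicate 1 and triangles for replicate 2. No gene shown has overlapping groups, but the genes were picked for large changes, and 9928 of all 13778 rows tested had none. The undifferentiated replicates of ASS1, 509 and 29.5, and PRG2, 2.73 and 358, are the farthest apart.

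Genes of cell division were lower in the DMSO libraries almost without exception. All 40 genes of a DNA replication list fell, with log2 fold changes from -4.3 to -1.18 and a median of -2.77. In a list of mitosis and cytokinesis genes, 41 of 42 fell, with a median of -2.73. For these and all later lists the background is 26.0% of all tested genes called higher, 34.7% called lower and a median of -0.112. CCNA2, cyclin A2, was the exception, at 31.5 and 48.6 in undifferentiated and 4.67 and 2.09 in DMSO libraries (log2 fold change -3.26, SE 1.42, limma adjusted p = 0.078).

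Licensing factors led the replication list. CDT1, which loads the MCM helicase onto origins, was at 103 and 28 normalized FPKM in undifferentiated and 2.68 and 1.12 in DMSO libraries, a log2 fold change of -4.3 (SE 0.25, limma adjusted p = 1e-05). MCM6, a subunit of that helicase, was at 67.9 and 70.6 and then at 5.66 and 4.4, a log2 fold change of -3.55 (SE 0.17, limma adjusted p = 5.9e-06). PCNA, the sliding clamp of the replication fork, kept the highest DMSO levels among these examples, 38.4 and 33.2, after 185 and 256. In no case did the groups overlap, which was also true of 9928 of all 13778 rows tested.

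Among mitotic genes, MYBL2, a transcription factor that activates the late cell cycle program, changed most, from 63.1 and 94.4 to 5.7 and 2.58 (log2 fold change -4, SE 0.36, limma adjusted p = 5.5e-05). CDC20, an activator of the anaphase-promoting complex, was at 56.4 and 72.1 and then 8.41 and 3.18. KIF11, the kinesin that pushes spindle poles apart, was at 14.7 and 22.4 and then 3.85 and 2.09. The 2 DMSO libraries were not alike here: 41 of the 42 mitotic genes were lower in DMSO replicate 2 than in DMSO replicate 1, with a median ratio of 0.517, whereas the undifferentiated libraries had a median ratio of 1.2 in the other direction. The summed level of the list was 1659 and 1987 in undifferentiated and 309 and 181 in DMSO replicates 1 and 2. Replicate 2 with DMSO thus retained less of the mitotic program.

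Promoters of 5 of these genes are printed as examples, picked for holding a motif, so they do not show how many genes share it. They are the 120 bases before the RefSeq start (GRCh38.p14), on the strand of the gene, chosen as the genes with the largest decreases in each list whose 120 bases hold the motif and no annotated exon. Capitals mark the motif on either strand. For 3 mitotic genes the motifs are CCAAT, the box bound by NF-Y, and TTTGAA, the core of the CHR element. In MKI67 a TTTGAA and a CCAAT on the opposite strand overlap.
CDC20, chr1:43358861-43358980, plus strand: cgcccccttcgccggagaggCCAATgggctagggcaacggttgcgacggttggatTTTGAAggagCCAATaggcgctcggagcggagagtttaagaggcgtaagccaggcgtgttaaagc
MKI67, chr10:128126424-128126543, minus strand: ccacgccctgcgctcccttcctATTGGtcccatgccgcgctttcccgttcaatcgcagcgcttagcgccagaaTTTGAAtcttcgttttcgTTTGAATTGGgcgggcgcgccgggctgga
KIF11, chr10:92593010-92593129, plus strand: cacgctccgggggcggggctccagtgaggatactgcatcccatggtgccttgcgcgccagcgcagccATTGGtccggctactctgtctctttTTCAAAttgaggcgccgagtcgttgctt
The other 2 are replication genes with an E2F-type motif, TTTCCCGC in CDT1 and TTTGGCGC in MCM6.
CDT1, chr16:88803669-88803788, plus strand: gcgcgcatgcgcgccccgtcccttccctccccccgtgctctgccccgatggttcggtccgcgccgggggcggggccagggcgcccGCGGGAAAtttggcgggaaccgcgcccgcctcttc
MCM6, chr2:135876444-135876563, minus strand: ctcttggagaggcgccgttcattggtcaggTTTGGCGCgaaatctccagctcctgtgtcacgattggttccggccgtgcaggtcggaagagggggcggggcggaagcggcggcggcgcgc

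The same motifs were counted in the 250 bases before the start, on both strands. A promoter was at hand for 35 of the 42 mitotic and 36 of the 40 replication genes. TTTGAA was present in 17 of the 35 mitotic promoters (48.6%), in 1 of the 36 replication promoters (2.78%) and in 13.6% of all 27305 promoters in the table. CCAAT was present in 65.7% of the mitotic, 55.6% of the replication and 33% of all promoters. Either E2F-type motif was present in 12 of the 36 replication promoters (33.3%), 2 of the 35 mitotic ones (5.71%) and 1.96% of all. The 2 lists fell by nearly the same median, and their promoters differed in which of these letters they held. A match describes the sequence only.

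In a list of CDK inhibitors and G1 regulators 16 of 29 tested genes were lower and 11 higher (median -0.8). CCNG2, an atypical cyclin of quiescent cells, was at 1.95 and 1.42 and then 26.2 and 35.4 (log2 fold change 3.56, SE 0.31, limma adjusted p = 4.7e-05). BTG2, an antiproliferative factor, was at 6.6 and 2.62 and then 38.7 and 63.4 (log2 fold change 3.27, SE 0.56, limma adjusted p = 0.0013). RBL2, the pocket protein p130 of the DREAM complex, rose from 21.1 and 14.2 to 38.8 and 40.3, while its relative RBL1 fell from 15.2 and 20.2 to 2.3 and 3.08.

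Cyclin-dependent kinases of G1 fell. CDK4 was at 196 and 171 and then 27.8 and 21.9 (log2 fold change -2.84, SE 0.16, limma adjusted p = 1e-05), and CDK6 at 6.87 and 9.22 and then 0.435 and 0.386. CDKN1A, the inhibitor p21, was at 0.231 and 0.227 and then at 2.06 and 2.06. Its call did not pass without undifferentiated replicate 2 or without DMSO replicate 1. Among the D-type cyclins CCND3 was at 72 and 33.2 and then 120 and 87.4, a call that did not pass without undifferentiated replicate 2 (limma adjusted p = 0.05), and CCND2 fell from 21.7 and 19.8 to 5.1 and 6.52. Without undifferentiated replicate 2 the list had 7 higher genes.

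MYC belongs to a network of factors that share the partner MAX. MAX itself was at 43.2 and 49.2 and then 45.4 and 41.4 (log2 fold change -0.09, SE 0.14, limma adjusted p = 0.61). Among its other partners MXD1 and MXD4, which oppose MYC, rose from 6.9 and 2.86 to 20.2 and 15.1 and from 4.27 and 4.51 to 27.5 and 28.6. MXD3, MXI1 and MNT of the same network did not pass the test. In the network list 4 of 10 tested genes were higher and 1 lower. MYCL, a paralog of MYC, was at 0.101 and 0.0659 in undifferentiated and 8.04 and 9.24 in DMSO libraries (log2 fold change 3.15, SE 0.36, limma adjusted p = 0.00016). With DMSO the levels of MYC and MYCL were therefore similar, at 9.91 and 7.31 against 8.04 and 9.24 normalized FPKM.

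Genes that feed growth fell with the cell cycle genes. In a ribosome biogenesis list 29 of 30 genes were lower (median log2 fold change -2.3), in a list of cytosolic ribosomal proteins 70 of 72 (median -1.07) and in a list of cytosolic aminoacyl-tRNA synthetases 18 of 20 (median -1.78). NPM1, a nucleolar chaperone of ribosome assembly, lost more FPKM than any other named gene, from 5377 and 4900 to 890 and 831 (log2 fold change -2.58, SE 0.15, limma adjusted p = 1e-05). RPLP0, of the ribosomal stalk, fell from 4505 and 3253 to 1029 and 690.

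The ribosomal proteins did not move evenly. RPS2, of the small subunit, fell from 4923 and 5561 to 1554 and 1996 (log2 fold change -1.57, SE 0.13, limma adjusted p = 3.4e-05). RPS27 was at 4138 and 4089 in undifferentiated and 3176 and 3911 in DMSO libraries (log2 fold change -0.22, SE 0.18, limma adjusted p = 0.31). The list as a whole summed to 186697 and 165218 normalized FPKM in undifferentiated and to 82309 and 81838 in DMSO libraries. Ribosomal protein genes have many processed pseudogenes, which could take reads from them. With the 4 HL-60 libraries fitted on their own, 46 of the 72 passed.

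Nucleotide synthesis fell likewise, with 17 of 19 genes lower and a median of -2.1. CTPS1, which makes CTP, was at 101 and 90.1 and then 13.1 and 9.96 (log2 fold change -2.95, SE 0.15, limma adjusted p = 6.6e-06). IMPDH2, the rate-limiting enzyme of guanine nucleotide synthesis, was at 300 and 209 and then 55.6 and 47.2, and its paralog IMPDH1 at 32.8 and 46.7 and then 51.2 and 58.7. The call of IMPDH1 did not pass without undifferentiated replicate 1 or without either DMSO library (limma adjusted p from 0.073 to 0.1). PAICS was listed at 0 in both undifferentiated libraries and at 10.1 and 14.3 with DMSO. A gene of purine synthesis at 0 in dividing cells may be a failed estimate, so no fold is given for it.

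Serine and one-carbon enzymes fell in 11 of 13 genes (median -2.25), and here the undifferentiated libraries differed. PHGDH, the first enzyme of serine synthesis, was at 141 and 41 in undifferentiated and 2.69 and 1.76 in DMSO libraries (log2 fold change -4.6, SE 0.37, limma adjusted p = 3.3e-05). PSAT1, the next enzyme, was at 158 and 45.7 and then 1.14 and 0.743 (log2 fold change -5.48, SE 0.39, limma adjusted p = 2.1e-05). In both genes undifferentiated replicate 1 was more than 3 times as high as replicate 2, and both were far above either DMSO library.

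**Figure D3:**
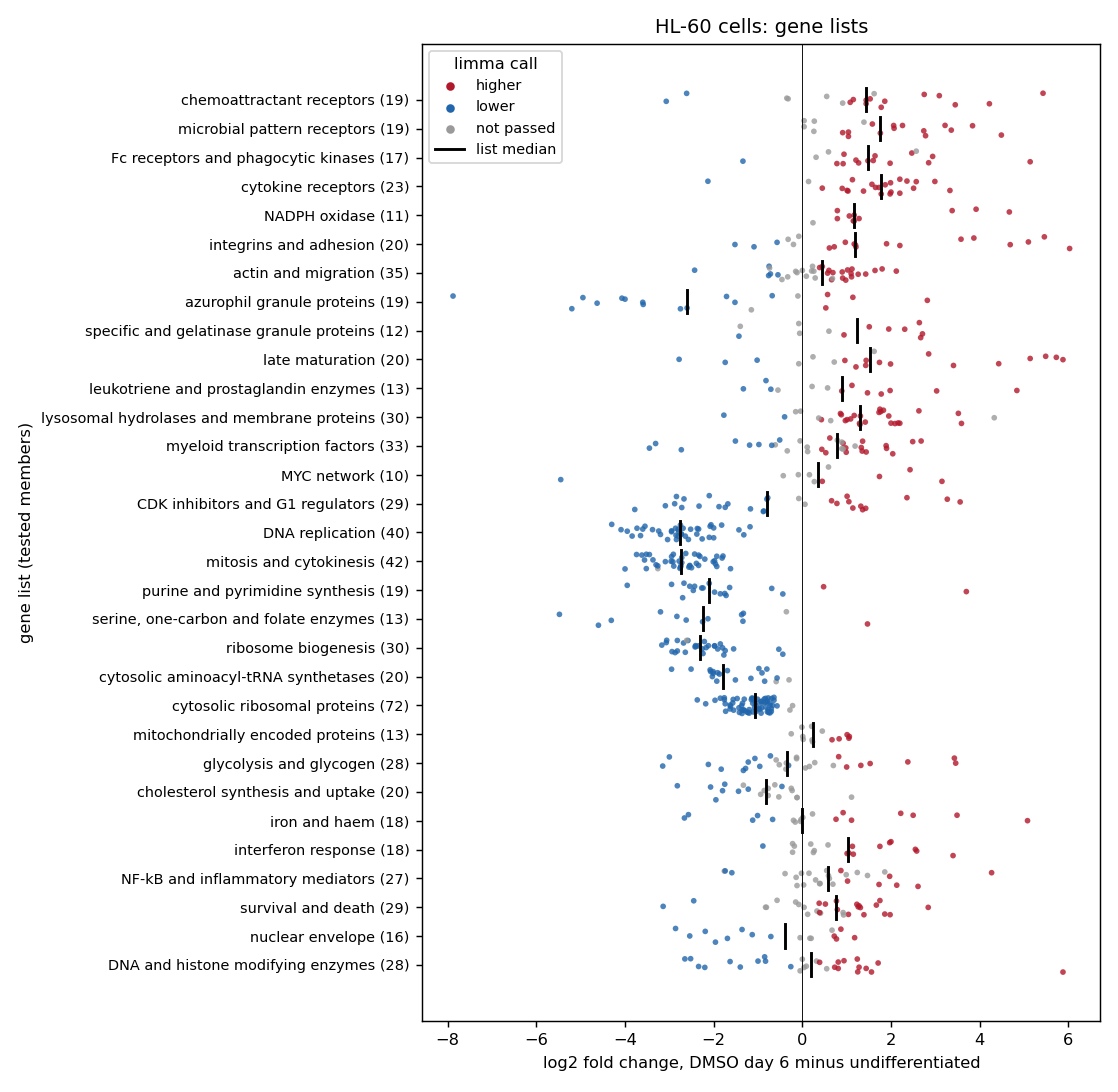
Each point is a tested gene, placed by its log2 fold change from undifferentiated to DMSO day 6 in HL-60 cells (horizontal axis) within its gene list (vertical axis, number of tested genes in brackets), colored by limma call, and black bars mark list medians. DNA replication, mitosis, ribosome and nucleotide lists lie left of 0 with medians from -2.77 to -1.07, while receptor lists lie right of it with medians from 1.44 to 1.78.

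Receptors for chemoattractants rose in 12 of 19 tested genes and fell in 2 (median 1.44). FPR1, the high affinity receptor for formyl peptides, was at 1.24 and 2.22 in undifferentiated and 116 and 113 in DMSO libraries (log2 fold change 5.43, SE 0.25, limma adjusted p = 5.9e-06). FPR2, its lower affinity paralog, started at 20.9 and 20.4 and reached 177 and 189. FPR2 was the higher of the pair in each of the 4 libraries. FPR3 was listed at 0 in all 4 libraries.

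C5AR1, for the complement fragment C5a, was at 6.3 and 1.55 and then 43.4 and 49 (log2 fold change 3.45, SE 0.45, limma adjusted p = 0.00033). CXCR2, the interleukin-8 receptor that neutrophils carry, was at 4.16 and 9.1 and then 22 and 20.4 (log2 fold change 1.62, SE 0.74, limma adjusted p = 0.09), and CXCR1, its partner receptor, reached 1.88 and 1.74 from 0.0341 and 0.037. P2RY2, a nucleotide receptor, fell from 28 and 50.7 to 4.15 and 3.12 (log2 fold change -3.07, SE 0.33, limma adjusted p = 0.00012), and P2RY13, an ADP receptor, rose from 0.925 and 0.514 to 28.7 and 33.1 (log2 fold change 4.22, SE 0.45, limma adjusted p = 0.00012). These 2 nucleotide receptors moved in opposite directions. C3AR1, for the fragment C3a, was the other lower gene, at 59.4 and 25.3 and then 5.92 and 5.14, and its call did not pass without undifferentiated replicate 1 (limma adjusted p = 0.065) or DMSO replicate 2 (adjusted p = 0.056).

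In a list of receptors of microbial patterns and their signaling partners, 14 of 19 tested genes rose and none fell (median 1.76). Those that rose included MYD88, TIRAP, IRAK4 and PYCARD, which are signaling proteins and not receptors. TLR2, NOD1, CLEC7A, CLEC4D and IRAK3 did not pass. TLR5, TLR7, TLR9, NOD2 and AIM2 did not reach the filter on low values. TLR8, an endosomal receptor of single-stranded RNA, was at 0.168 and 0.285 and then 16.1 and 17 (log2 fold change 3.84, SE 0.3, limma adjusted p = 3e-05). TLR1 and TLR6, which pair with TLR2, reached 19.8 and 18.8 and 5.25 and 5.5 from at most 1.39. TLR2 itself, prominent on blood neutrophils, was between 0 and 0.0399 in all 4 libraries. LY96, the MD-2 subunit that TLR4 needs for endotoxin, went from 0.0855 and 0.186 to 10.7 and 10.5.

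In a list of Fc receptors and phagocytic kinases 13 of 17 tested genes rose and 1 fell (median 1.48). CR1, complement receptor 1, was at 0.452 and 0.941 and then 56.4 and 59.9 (log2 fold change 5.14, SE 0.19, limma adjusted p = 3.8e-06). FCGR2A, the activating IgG receptor, rose from 9.04 and 12.6 to 59.1 and 69.1. FCGR3B, the abundant Fc receptor of blood neutrophils, reached only 1.71 and 1.9, and reads could be shared with FCGR3A. FCGR1A, the high affinity IgG receptor, fell from 16.1 and 12.7 to 6.47 and 3.89 (log2 fold change -1.34, SE 0.33, limma adjusted p = 0.0081), a call that did not pass without DMSO replicate 2 (limma adjusted p = 0.06).

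Cytokine receptors were the most uniform of the receptor lists, with 21 of 23 tested genes higher and 1 lower (median 1.78). CSF3R, the receptor of G-CSF, was at 33.4 and 20.7 and then 98.6 and 117 (log2 fold change 1.99, SE 0.29, limma adjusted p = 0.00063). TGFBR2, the type II receptor of TGF-beta, rose from 10.1 and 7.71 to 72.1 and 82.6. FLT3, the receptor of early progenitors, fell from 5.64 and 3.96 to 0.384 and 0.239 (log2 fold change -2.13, SE 0.22, limma adjusted p = 1e-04). The groups did not overlap in any of these receptors, nor in 9928 of all 13778 rows tested.

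Integrins and adhesion molecules rose in 14 of 20 tested genes and fell in 3 (median 1.18). ITGAM, the CD11b chain of Mac-1, on chr16:31259967-31332892, was at 2.51 and 2.58 and then 160 and 150 (log2 fold change 5.46, SE 0.16, limma adjusted p = 2.2e-06). ITGB2, the beta-2 chain that ITGAM pairs with, was already at 133 and 97.3 and reached 528 and 525. SPN, the sialoglycoprotein CD43, fell from 193 and 156 to 62.3 and 57.7. The number of lower genes was 2 without undifferentiated replicate 2 and 1 without DMSO replicate 2.

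Actin regulators changed less, with 18 of 35 genes higher, 5 lower and a median of 0.45. PREX1, a Rac activator of chemotaxing neutrophils, rose most, from 23.1 and 15.3 to 79.9 and 91.1 (log2 fold change 2.12, SE 0.22, limma adjusted p = 9.4e-05). The lower genes numbered 3 without DMSO replicate 1 and 2 without DMSO replicate 2. TAGLN2, transgelin 2, fell from 357 and 473 to 71.1 and 80 (log2 fold change -2.43, SE 0.1, limma adjusted p = 5.8e-06). ACTB was at 2846 and 2732 and then 3891 and 2672, with overlapping groups.

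All subunits of the NADPH oxidase that were listed had reads before DMSO, and 10 of 11 genes rose (median 1.17). CYBA (p22phox), the membrane partner of the catalytic subunit, rose from 161 and 144 to 341 and 348, a log2 fold change of 1.17 (SE 0.12, limma adjusted p = 9.5e-05). The cytosolic subunit NCF4 (p40phox) was at 135 and 99.6 and then at 255 and 270. NCF1 (p47phox) was at 23.3 and 42.7 and then 426 and 573, but its near-identical pseudogenes make the level uncertain. CYBB, the catalytic gp91phox subunit, moved little, from 61.2 and 31.7 to 79.5 and 74.9, and its call did not pass without undifferentiated replicate 2 (log2 fold change 0.29, limma adjusted p = 0.27), without DMSO replicate 1 or without DMSO replicate 2 (both adjusted p = 0.13). HVCN1, the proton channel that balances the charge of the oxidase, went from 3.68 and 4.31 to 59.5 and 43.4.

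Azurophil granule genes fell in 13 of 19, beside 34.7% of all genes tested, and rose in 4, beside 26.0%. The median was -2.6, and -1.47 without undifferentiated replicate 2. MPO, on chr17:58269855-58280935, was at 165 and 64.4 after DMSO (log2 fold change -5.2, SE 0.6, limma adjusted p = 0.00017). ELANE, neutrophil elastase, was at 127 and 230 and then 6.86 and 2.96 (log2 fold change -4.95, SE 0.52, limma adjusted p = 0.00011), and CTSG, cathepsin G, at 78.7 and 115 and then 6.75 and 3.68. The alpha-defensins DEFA1 and DEFA3, near-identical copies whose reads cannot be assigned with certainty, were at 14.7 and 17.1 and at 13.2 and 12.3 before DMSO and at no more than 1.19 after. As with the mitotic genes, 17 of the 19 were lower in DMSO replicate 2 than in replicate 1.

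The azurophil genes that rose included LYZ, lysozyme, from 36.9 and 120 to 520 and 436 (log2 fold change 2.82, SE 0.49, limma adjusted p = 0.0014). BPI, which binds endotoxin, was at 10.2 and 11.2 and then 28.8 and 21.2, but its call did not pass without undifferentiated replicate 1 (limma adjusted p = 0.063). Without that library 2 of the genes remained called higher. CTSC, the protease that activates the granule serine proteases, was at 138 and 165 and then 149 and 132, with overlapping groups.

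**Figure D4:**
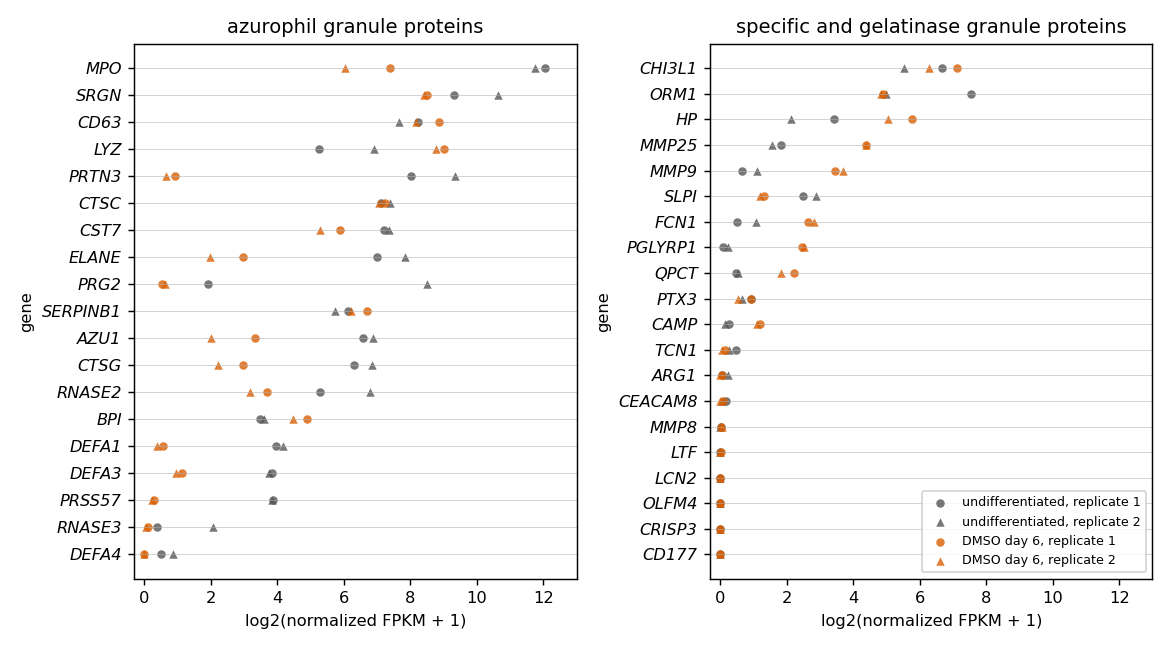
log2(normalized FPKM + 1) of azurophil (left) and specific and gelatinase (right) granule protein genes in the 4 libraries, with gray for undifferentiated, orange for DMSO day 6, circles for replicate 1 and triangles for replicate 2. The azurophil proteases move to the left with DMSO, and LTF, LCN2, OLFM4, CRISP3 and CD177 lie at or near 0 in all 4 libraries.

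Of 20 specific and gelatinase granule genes, 8 did not reach the filter on low values. LTF (lactoferrin) was between 0 and 0.0152, and LCN2, OLFM4, CRISP3 and CD177 were listed at 0 in all 4 libraries. Of the 12 genes tested, 7 rose and 1 fell (median 1.23). Those that rose were MMP9, MMP25, FCN1, QPCT, HP, PGLYRP1 and CAMP, and SLPI fell. The lower genes numbered 2 without undifferentiated replicate 2 or DMSO replicate 2. MMP9, gelatinase B, was at 0.584 and 1.15 and then 9.83 and 11.8 (log2 fold change 2.67, SE 0.22, limma adjusted p = 3.5e-05), and MMP25, a membrane-bound metalloprotease, at 2.53 and 1.91 and then 20 and 20. CAMP, the cathelicidin precursor, reached 1.28 and 1.13.

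In a list of late maturation genes 13 of 20 tested genes rose and 3 fell (median 1.53). VNN2, a GPI-anchored vanin, was at 0.0932 and 0.164 and then 36 and 41.5 (log2 fold change 5.14, SE 0.52, limma adjusted p = 9.5e-05). ALPL, neutrophil alkaline phosphatase, and MME (CD10), both marks of fully mature neutrophils, were listed at 0 in all 4 libraries. S100P, a calcium-binding protein, fell from 59.7 and 9.89 to 6.1 and 0.98.

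Lysosomal genes rose in 23 of 30 and fell in 2 (median 1.3). CTSZ, cathepsin Z, was at 1.12 and 1.06 and then 23.4 and 25.1 (log2 fold change 3.59, SE 0.18, limma adjusted p = 6.6e-06). CTSD, cathepsin D, was at 70.4 and 112 and then 341 and 378 (log2 fold change 2, SE 0.18, limma adjusted p = 5.6e-05). TFEB and TFE3, transcription factors that activate lysosomal genes, rose from 3.32 and 1.37 to 11.4 and 14.1 and from 6.35 and 5.16 to 27.8 and 32.2. GLA, alpha-galactosidase A, fell from 26.2 and 30.3 to 8.4 and 6.76.

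Lipid mediator enzymes rose in 7 of 13 genes and fell in 3 (median 0.89). ALOX5, 5-lipoxygenase, which starts leukotriene synthesis, was at 9.88 and 5.38 and then 58 and 77.6 (log2 fold change 3.03, SE 0.35, limma adjusted p = 0.00017). HPGD, which inactivates prostaglandins, was at 0.31 and 0.782 and then 41.2 and 44.1 (log2 fold change 4.84, SE 0.34, limma adjusted p = 1.9e-05). The lower genes numbered 2 without undifferentiated replicate 2 or either DMSO library. PTGES3 fell from 220 and 286 to 98.8 and 99.8.

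Of 33 tested myeloid transcription factors, 15 rose and 8 fell (median 0.79), but 9 rose without DMSO replicate 2, and 5 fell without either DMSO library. STAT3, which acts downstream of the G-CSF receptor, was at 12.8 and 9.96 and then 48.3 and 41.3 (log2 fold change 1.89, SE 0.1, limma adjusted p = 8.2e-06). BCL6, a repressor, rose from 1.19 and 0.935 to 11.4 and 9.78, and FOS from 4.58 and 1.14 to 21.1 and 21.1. MYB, a factor of progenitors, fell from 66.3 and 122 to 8.97 and 5.98 (log2 fold change -3.45, SE 0.44, limma adjusted p = 0.00029), and GFI1, a repressor that granulocytes require, from 65.6 and 56.1 to 12.5 and 5.37. CEBPE, the factor of specific granule genes, was at 69.4 and 97.5 and then 31.1 and 25.8, and its call did not pass without undifferentiated replicate 2 (limma adjusted p = 0.12), DMSO replicate 1 (adjusted p = 0.076) or DMSO replicate 2 (adjusted p = 0.059).

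Of 28 tested glycolysis and glycogen genes, 7 were higher and 11 lower (median -0.33), close to the 26.0 and 34.7% of all genes tested. Single genes changed widely. Glucose transporters moved in opposite directions: SLC2A1 (GLUT1) was at 31.2 and 28.5 and then 6.03 and 6.17 (log2 fold change -2.12, SE 0.28, limma adjusted p = 0.00036), and SLC2A3 (GLUT3) at 7.12 and 4.3 and then 71 and 71.6 (log2 fold change 3.46, SE 0.77, limma adjusted p = 0.0049). HK3, the hexokinase of myeloid cells, rose from 4.46 and 4.67 to 60.1 and 57.7. LDHA, lactate dehydrogenase A, fell from 648 and 1436 to 115 and 101 (log2 fold change -3.15, SE 0.3, limma adjusted p = 6.7e-05), and LDHB from 1011 and 778 to 144 and 84.

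Of 18 tested genes of iron and heme, 7 were higher and 5 lower, beside 26.0 and 34.7% of all genes tested, with a median of -0.01. TFRC, the transferrin receptor, was at 86.5 and 122 and then 17.5 and 13.4 (log2 fold change -2.66, SE 0.34, limma adjusted p = 0.00027). FTH1, ferritin heavy chain, was at 179 and 185 and then 658 and 1106 (log2 fold change 2.22, SE 0.46, limma adjusted p = 0.0035). SLC11A1, the metal transporter NRAMP1 of phagosomes, rose from 0.329 and 0.582 to 13.3 and 17.5, and HMOX1, heme oxygenase 1, from 0.0854 and 0.197 to 5.41 and 5.51.

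Of 20 tested cholesterol genes 8 were lower, a share close to the 34.7% of all genes tested, and none was higher (median -0.82). Only 3 passed without undifferentiated replicate 2 and 4 without either DMSO library. FDPS, which makes farnesyl diphosphate, was at 129 and 178 and then 46.4 and 42.1, and its call was one of those that did not pass without undifferentiated replicate 2 or either DMSO library. Of the 13 proteins encoded by mitochondrial DNA, 5 rose (median 0.23), 9 did so without undifferentiated replicate 1, 3 without undifferentiated replicate 2 and 2 without DMSO replicate 2. All 13 were higher in DMSO replicate 2 than in replicate 1, with a median ratio of 1.99, so these genes differed within the DMSO group by about as much as MT-CO1 changed, from 3171 and 3477 to 4845 and 9885. The call of MT-CO1 did not pass without DMSO replicate 2 (limma adjusted p = 0.054).

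Interferon response genes rose in 10 of 18 tested and fell in 1 (median 1.03). IFI30, a lysosomal thiol reductase, was at 21.1 and 19.9 and then 232 and 220 (log2 fold change 3.4, SE 0.13, limma adjusted p = 4.6e-06). IRF9 and STAT2, partners in interferon signaling, rose from 2.88 and 4.21 to 23.7 and 26.9 and from 8.38 and 4.42 to 25.5 and 28.4. The lower gene did not pass without undifferentiated replicate 1 or either DMSO library. ISG15, a typical interferon target, was at 6.87 and 6.2 and then 5.13 and 5.83.

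Of 27 inflammatory mediators 7 were higher, near the 26.0% of all genes tested, and 2 lower (median 0.59). Without undifferentiated replicate 1, 13 were higher and 1 lower (median 1.08), and without undifferentiated replicate 2, 5 were higher and 3 lower (median 0.09). IL1B, interleukin-1 beta, was at 0.835 and 1.18 and then 27.6 and 51 (log2 fold change 4.27, SE 0.47, limma adjusted p = 0.00013). CXCL8, interleukin-8, was at 61.5 and 19.8 and then 45.5 and 47.2, with the DMSO values between the undifferentiated ones. CCL2, a monocyte chemoattractant, was at 445 and 167 and then 377 and 515.

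Survival and death genes rose in 16 of 29 and fell in 2 (median 0.77). Within the BCL2 family, BCL2 fell from 20.2 and 12.7 to 0.732 and 1.17 (log2 fold change -3.14, SE 0.24, limma adjusted p = 2.6e-05). BCL2A1, an antiapoptotic relative, rose from 7.18 and 6.36 to 56.9 and 52.6 (log2 fold change 2.84, SE 0.38, limma adjusted p = 0.00036), and MCL1 from 31.6 and 35.2 to 66.4 and 73.4. APAF1, the scaffold of the apoptosome, rose from 7.67 and 7.11 to 31.4 and 27.7, and CYCS, the cytochrome c it binds, fell from 229 and 315 to 55.6 and 42.4. BCL2L1, XIAP and BIRC3, also antiapoptotic, did not pass the test.

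Nuclear envelope genes rose in 4 of 16 tested, near the 26.0% of all genes tested, and fell in 8, beside 34.7% (median -0.38). The B-type lamins LMNB1 and LMNB2 fell from 129 and 143 to 22.2 and 14.4 and from 53.6 and 58 to 8.83 and 8.62. LMNA, the A-type lamin, was at 195 and 134 and then 233 and 285 (log2 fold change 0.67, SE 0.34, limma adjusted p = 0.12). LBR, the lamin B receptor that neutrophil nuclei need for lobulation, was at 118 and 114 and then 121 and 103 (log2 fold change -0.05, SE 0.19, limma adjusted p = 0.84).

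Among DNA and histone modifying enzymes 12 of 28 tested rose and 10 fell, beside 26.0 and 34.7% of all genes tested. The median was 0.2, and 0.1 without DMSO replicate 2. EZH2, the catalytic subunit of Polycomb complex 2 in dividing cells, was at 36.8 and 36.4 and then 5.64 and 4.4 (log2 fold change -2.65, SE 0.22, limma adjusted p = 3.6e-05). Its paralog EZH1 rose from 6.38 and 5.38 to 16.3 and 18.9 (log2 fold change 1.44, SE 0.18, limma adjusted p = 0.00027). DNMT1, the maintenance methyltransferase, fell from 160 and 139 to 33.1 and 24.8, and TET2, which oxidizes methylcytosine, rose from 4.64 and 6.57 to 13.8 and 15.2. Of 15 housekeeping genes 8 fell and 3 rose, beside the same shares of all genes tested. On FPKM without the factor 5 fell, and with the 4 HL-60 libraries fitted on their own 4 did. GAPDH was at 2951 and 3965 and then 1817 and 1704 (log2 fold change -0.96, SE 0.18, limma adjusted p = 0.0023). Its call did not pass with the 4 HL-60 libraries on their own.

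Markers of other blood cells were measured as well. Of 14 monocyte and macrophage markers, 9 stayed under 1 normalized FPKM in all 4 libraries, 4 rose and 1 fell. CD14, the endotoxin coreceptor that monocytes carry in abundance, was at 1.5 and 1.04 and then 44.5 and 55.2 (log2 fold change 4.49, SE 0.28, limma adjusted p = 1.3e-05). CSF1R, the receptor of M-CSF, was at 0.423 and 0.858 and then 7.78 and 8.73, while C1QB and MRC1 were at 0 throughout. The list summed to 10.4 and 5.18 in undifferentiated and 57.6 and 69.4 in DMSO libraries, most of it CD14. The part of other cells in the myeloid results was not tested.

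Of 12 erythroid and megakaryocyte markers 7 were at 0 in all 4 libraries, globin genes included, and the list summed to 4.32 and 3.17 and then 6.77 and 7.14. Of 8 basophil and mast cell markers 7 stayed under 1 normalized FPKM, with sums of 1.25 and 1.88 and then 0.495 and 0.112. Of 9 lymphocyte markers 7 stayed under 1, MS4A1 (CD20) was at 0, and the sums of 24.1 and 18.4 and then 4.81 and 1.88 were mostly NKG7, which is also expressed in myeloid precursors. Eosinophil markers set the undifferentiated libraries apart, with sums of 51.3 in replicate 1 and 556 in replicate 2, and of 75.8 and 55.6 with DMSO.

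PRG2, eosinophil major basic protein, made most of that difference, at 2.73 and 358 in undifferentiated and 0.443 and 0.521 in DMSO libraries (log2 fold change -4.63, SE 1.45, limma adjusted p = 0.024). Its call did not pass without DMSO replicate 1 (adjusted p = 0.053) or DMSO replicate 2 (adjusted p = 0.14). CLC, the Charcot-Leyden crystal protein, was at 8.12 and 81 and then 60.5 and 44.3, with overlapping groups, and EPX, eosinophil peroxidase, at 1.19 and 2.63 and then 0.285 and 0.0728. Azurophil genes were also higher in undifferentiated replicate 2 than in replicate 1, in 14 of 19, with a median ratio of 1.24. This shift was not particular to granule genes. The same median ratio was 1.23 for ribosome biogenesis, 1.22 for mitochondrially encoded, 1.2 for mitotic and 1.14 for DNA replication genes. For cytosolic ribosomal proteins it was 0.857.

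Genes with a large gap between the pairs were mostly rows listed at 0 in a single library. GRB2, an adaptor that all cells use, was at 107 and 145 in undifferentiated and at 0 and 239 in DMSO libraries, and MSRB1, KCNAB2 and PRRC2C showed the same kind of gap. POLR2A, the large subunit of RNA polymerase II, was listed at 25.5 and 34.6 in replicate 1 and at 0 in replicate 2 of both groups. A 0 in such rows does not mean that the gene was silent, and none of these 5 genes passed the test.

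The same comparison in PLB-985 cells, in the same fit, called 8320 of the 13778 rows. Called in both lines were 6983 genes in the same direction and 29 in opposite directions. The shared direction covered 83.5% of the HL-60 calls and 83.9% of the PLB-985 calls. With 60.7% of rows called in HL-60 cells, part of this overlap follows from the number of calls. The difference between the responses, tested as an interaction in limma, passed for 180 of 13778 genes (1.31%), and 1688 had an unadjusted p under 0.05. Among the 180 genes that passed, the HL-60 response was the more positive one in 120.

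Several genes responded in HL-60 cells and hardly in PLB-985 cells. CD14 was at 0.837 and 0.0278 in undifferentiated and 0.358 and 0.539 in DMSO libraries of PLB-985, and the responses differed by 4.41 on the log2 scale (SE 0.4, limma adjusted p = 0.0029). HPGD was at 0.895 and 0.107 and then 0.0294 and 0.0381 in PLB-985, a difference of 5.32 (SE 0.48, limma adjusted p = 0.0029). LPAR6, a lysophosphatidic acid receptor, reached 16.1 and 20.2 in HL-60 and no more than 0.142 in any PLB-985 library of this comparison. MMP9 was at no more than 0.552 in PLB-985, and its responses differed by 2.42 (limma adjusted p = 0.011).

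Other genes were expressed in undifferentiated HL-60 cells alone of the 2 lines. BEX1 was at 121 and 214 in undifferentiated HL-60 and fell to 9.81 and 6.93, with at most 0.0844 in PLB-985. TRBV7-4, a T cell receptor segment, was at 16.9 and 16 and then 0.359 and 0. The reverse held for ACTL8, an actin-like protein, at 64.8 and 52 in undifferentiated PLB-985 and 1.11 and 0.715 in undifferentiated HL-60. CHI3L1, a chitinase-like granule protein, was at 101 and 45.1 and then 138 and 76.7 in HL-60, whose groups overlapped, and rose from 11.1 and 13.3 to 321 and 204 in PLB-985, so that the responses differed by -3.68 (SE 0.47, limma adjusted p = 0.011).

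Opposite responses were rare. ECI2, an enzyme of fatty acid oxidation, rose in HL-60 from 0.103 and 0.0638 to 2.17 and 2.93 and fell in PLB-985 from 16 and 17.8 to 6.3 and 6.92, a difference of 2.94 (limma adjusted p = 0.0027). DHX37, an RNA helicase, fell in HL-60 from 12.1 and 16.8 to 5.02 and 4.82 and was listed at 0 in undifferentiated PLB-985, with 4.61 and 4.55 after DMSO. That 0 may be a failed estimate, and the opposite sign rests on it. FPR2 differed in size only: it started from 0.361 and 0.424 in PLB-985 and reached 42.1 and 80.1 (difference -2.32, limma adjusted p = 0.017).

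**Figure D5:**
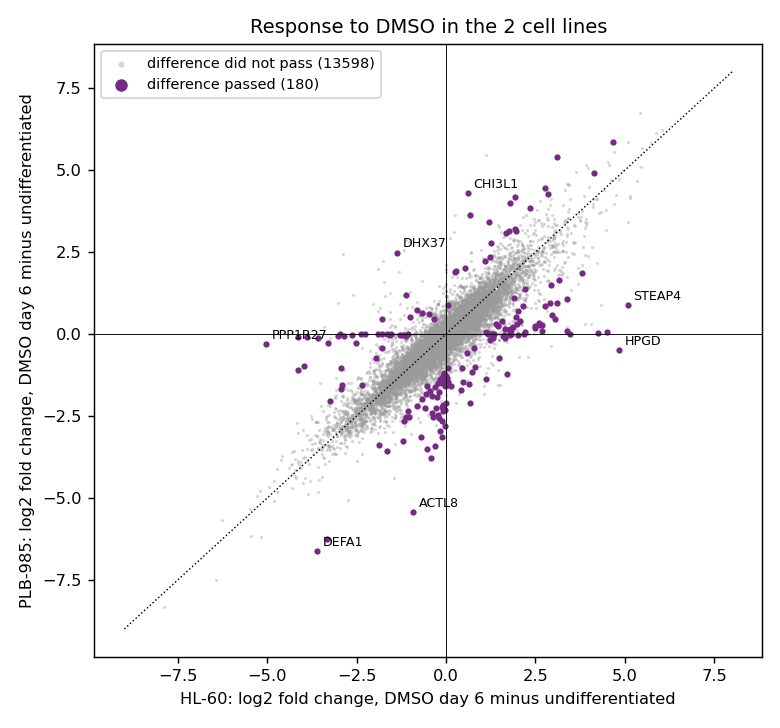
Each point is a gene, placed by its log2 fold change from undifferentiated to DMSO day 6 in HL-60 (horizontal axis) and PLB-985 cells (vertical axis), and the 180 genes whose responses differed in limma are purple. Points gather along the dotted line of equal response, and HPGD and STEAP4 lie at the right edge near 0 on the PLB-985 axis.

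The comparison with Nutridoma shares the DMSO libraries, so its differences are not independent of those above. DMSO plus Nutridoma differed from DMSO in 2269 genes (16.5%), 1358 higher and 911 lower. CD14 stood at 518 and 376 with Nutridoma against 44.5 and 55.2 with DMSO, STEAP4, a metalloreductase, at 205 and 338 against 35.7 and 48.9, and MMP9 at 158 and 242 against 9.83 and 11.8. PADI4 was lower with Nutridoma, at 98.1 and 17.3 against 332 and 338 (log2 difference -2.98, limma adjusted p = 0.019), and VNN2 at 11.1 and 4.49 against 36 and 41.5. The mitotic list had no gene that differed between the 2 treatments, out of 42.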

How the data were processed

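PolyA-selected RNA of 14 cultures was sequenced as single-end reads. The authors aligned reads with STAR 2.4 to GRCh38.p5 and deposited FPKM from Cufflinks 2.2.1 for 60707 rows. They also deposited log10 values of FPKM multiplied by 1 factor per library, with a small constant added, so that a 0 is a fixed low value. Whether counting used strand was not given in the sources used here, and overlapping or near-identical genes are uncertain.

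Normalized FPKM was recovered from the log10 table. limma 3.58.1 (R 4.3.3) was fitted to log2(normalized FPKM + 1) of 12 replicated libraries in 6 groups, with a trend, over 13778 rows that reached 1 normalized FPKM in 2 or more libraries. Replicate number was a term, because the replicates were repeats on separate days and same-numbered libraries deviated together in all 15 pairs of groups (r from 0.653 to 0.852, 0.736 for the HL-60 groups). Threshold: Benjamini-Hochberg adjusted p under 0.05 over all rows. Whether cultures within a day were independent was not stated, so p-values measure the spread between these libraries. On data simulated with the same design over 13778 rows, 56.6% of changes of log2 1 and 89.3% of log2 2 were found. Only a small share of rows, none with low values, was changed in that simulation. In the data 60.7% of rows were called, so these rates do not carry over to the comparison.

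Named genes were the 15 largest increases and decreases, the 5 largest gains and losses in FPKM, the 5 most uneven genes, the 5 largest differences from PLB-985 in each direction and members of 39 lists. The members and lists were chosen with earlier results of these data known. ECI2 and AC006483.1 were named after their values were seen. Promoters came from RefSeq (GRCh38.p14), and gene positions from GENCODE 44. The alternatives tried were 16, on scaling, filter, constant, samples and replicate term.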

Additional observations from a re-analysis of the deposited data

Results flagged for a closer look

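The response of 3 of the largest changes in HL-60 cells differed from that of PLB-985 cells by the interaction test in limma. HPGD responded more in HL-60 by 5.32 on the log2 scale (SE 0.48, limma adjusted p = 0.0029), and STEAP4 by 4.22 (SE 0.36, limma adjusted p = 0.0027). PPP1R27 had a response that differed by -4.71 (SE 0.63, limma adjusted p = 0.012): it was at 27.6 and 74.2 in undifferentiated HL-60 and at 1.19 and 0.659 in undifferentiated PLB-985 cells. The cause of these differences was not tested.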

How the results depend on the processing

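Counts of genes higher and lower with DMSO were 3584 and 4782, and 2846 and 3640 without the replicate block. Leaving out 1 HL-60 library gave 2642 to 3465 higher and 3821 to 4480 lower genes. FPKM without the factor gave 4236 higher and 3990 lower genes, so that 51.5% of calls were higher against 42.8%, and median-of-ratios scaling gave 46.6%. Genes whose response differed from PLB-985 numbered 180, but 114 without the replicate block, 77 with a constant of 0.1, 325 with no filter, 89 with a filter of 5 and 49 to 198 with 1 library left out. Genes that differed with Nutridoma numbered 2269, but 839 without the replicate block, 1466 with no filter, 101 in HL-60 libraries alone and 274 to 2724 with 1 library left out. Of 12427 values of 780 named genes under the alternatives, 11821 kept direction and side of the threshold, 493 lost the call, 111 gained one and 2 reversed. GRB2 had a log2 fold change of 0.81 without DMSO replicate 1, where it is listed at 0, and of -6.85 without DMSO replicate 2. CLC had -1.1 without undifferentiated replicate 1 and 3.0 without undifferentiated replicate 2. Absolute depth is unknown, so no counting interval is given.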
